A study of Homo sapiens with 6 samples.

Results

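The proteasome genes on these arrays were taken as all non-control probes whose gene name begins with PSMA, PSMB, PSMC, PSMD or PSME followed by a digit, with the brightest probe standing for each gene. The rule found 45 gene names with 68 probes. Of these names, 42 encode subunits, activators or assembly chaperones of the proteasome, and 3 only share the name. Those 3 are PSMC3IP, a meiotic recombination cofactor, and the antisense RNAs PSMA3-AS1 and PSMD5-AS1.

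Gene expression was measured in 2 established human ovarian cancer cell lines on 6 two-colour Agilent arrays. In SKOV3 cells, sh-S1 and sh-S2, shRNA-Hic-5 clones each stably transduced with a lentiviral short hairpin RNA against Hic-5 and selected with puromycin, were compared with a Ctrl clone carrying a scrambled hairpin, on 4 arrays. In A2780s cells, a single clone stably transfected with the pCMV-Hic-5 expression vector and selected with neomycin was compared with a Ctrl clone of the empty vector, on 2 arrays. Every pair of RNAs was hybridized on 2 arrays with the dyes Cy3 and Cy5 exchanged, which count as 1 replicate, so that SKOV3 has 2 replicates set against 1 Ctrl RNA and A2780s has 1 replicate and no test.

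The proteasome is the protease that degrades ubiquitin-tagged proteins. Its barrel-shaped core is built of alpha and beta rings, and the active sites sit on the beta subunits PSMB5, PSMB6 and PSMB7. Interferon and related signals replace these with the inducible subunits PSMB8, PSMB9 and PSMB10, giving the immunoproteasome, which cuts peptides for display on MHC class I. The core is capped by the regulatory particle, whose ATPases (PSMC genes) unfold the substrate and whose other subunits (PSMD genes) bind and remove ubiquitin, or by activators encoded by the PSME genes.

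All values below are log2 ratios of the modified clone over its Ctrl unless a level is named. In SKOV3 the calling rule was a limma p of at most 0.05 after Benjamini-Hochberg adjustment over 24958 probes, together with a 2-fold or larger change, and in A2780s it was a mean of at least 1.5-fold with the same direction on both arrays. The SKOV3 arrays were dim in Cy5, with a median signal above background of 9.52 to 25.5 against 373 to 530.5 in Cy3, while the A2780s arrays had 325 to 568 in either dye. TGFB1I1, the gene of the focal adhesion scaffold Hic-5, was at 0.03 ± 0.07 (SD, n = 2; adjusted p = 0.855 by limma) in SKOV3 and at 3.33 in A2780s. The RNAs under the sh-S1 and sh-S2 labels, called sh-labelled below, thus showed no measurable fall in TGFB1I1, and every direction given for them rests on those labels. The log2 level of TGFB1I1 was 8.22 in the SKOV3 Ctrl and 12.88 in the A2780s Ctrl, each cell line on its own slide. Of 9 ovarian carcinoma and epithelial markers, 5 were well above background in the SKOV3 Ctrl on all 4 arrays. In the sh-labelled RNAs 4 of the 9 were called lower, beside 4.16% of all probes tested, led by PAX8 at -3.58 and KRT18 at -3.53. Their summed level was 41700 to 62800 in the SKOV3 Ctrl, 5690 to 9060 in the sh-labelled RNAs, and 2570 to 2750 in the A2780s Ctrl. The markers CDH1, EPCAM, MSLN and MUC16 were not well above background in the SKOV3 Ctrl throughout. Of 10 leukocyte, endothelial and fibroblast markers, 4 were well above background in the SKOV3 Ctrl on all 4 arrays and none was called, and their summed level was 2000 to 2140 in the SKOV3 Ctrl and 1980 to 2220 in the clones. The part of these marker shifts in the proteasome values was not tested.

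The promoters of the inducible subunits and of their partners are shown here because the inducible subunits gave the lowest ratios below. The sequences are the 250 bases before the gene start in RefSeq, build GRCh38.p14, written in the direction of transcription. The capitals mark matches on either strand to the letters GAAANNGAA, the core of the interferon response element, or TTCNNNGAA, the GAS (gamma-activated site) element.
PSMB8, first start, chr6:32844680-32844929, minus strand: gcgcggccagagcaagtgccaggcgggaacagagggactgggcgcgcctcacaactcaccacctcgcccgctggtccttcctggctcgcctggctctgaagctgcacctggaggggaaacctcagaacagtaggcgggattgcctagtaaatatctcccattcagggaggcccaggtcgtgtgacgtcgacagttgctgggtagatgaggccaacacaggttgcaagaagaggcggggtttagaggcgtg
PSMB8, other start, chr6:32844048-32844297, minus strand: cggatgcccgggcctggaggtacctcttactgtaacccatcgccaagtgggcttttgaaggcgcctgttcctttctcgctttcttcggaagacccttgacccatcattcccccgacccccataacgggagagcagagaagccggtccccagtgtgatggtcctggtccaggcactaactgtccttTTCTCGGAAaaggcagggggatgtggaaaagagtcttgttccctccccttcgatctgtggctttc
PSMB9, chr6:32853942-32854191, plus strand: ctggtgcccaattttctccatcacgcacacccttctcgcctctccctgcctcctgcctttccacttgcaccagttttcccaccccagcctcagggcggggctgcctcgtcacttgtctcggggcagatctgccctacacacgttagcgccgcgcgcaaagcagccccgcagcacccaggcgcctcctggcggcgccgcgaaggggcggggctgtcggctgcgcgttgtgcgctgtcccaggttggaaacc
PSMB10, chr16:67936851-67937100, minus strand: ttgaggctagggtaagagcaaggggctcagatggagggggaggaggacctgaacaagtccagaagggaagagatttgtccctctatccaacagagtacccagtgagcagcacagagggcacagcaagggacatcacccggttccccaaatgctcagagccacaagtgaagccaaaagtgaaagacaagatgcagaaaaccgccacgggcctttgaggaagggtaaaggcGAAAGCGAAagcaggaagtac
PSMB5, first start, chr14:23035221-23035470, minus strand: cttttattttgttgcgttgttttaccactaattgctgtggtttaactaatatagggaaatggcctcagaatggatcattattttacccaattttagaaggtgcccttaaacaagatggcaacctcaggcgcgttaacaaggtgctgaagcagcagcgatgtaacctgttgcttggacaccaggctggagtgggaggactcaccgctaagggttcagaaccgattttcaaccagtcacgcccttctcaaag
PSME1, chr14:24135944-24136193, plus strand: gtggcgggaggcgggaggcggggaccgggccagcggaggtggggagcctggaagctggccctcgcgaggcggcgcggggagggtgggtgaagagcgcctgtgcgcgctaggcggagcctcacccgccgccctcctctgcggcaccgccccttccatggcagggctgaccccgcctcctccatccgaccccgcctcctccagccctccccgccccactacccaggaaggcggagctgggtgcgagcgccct
PSME2, chr14:24146611-24146860, minus strand: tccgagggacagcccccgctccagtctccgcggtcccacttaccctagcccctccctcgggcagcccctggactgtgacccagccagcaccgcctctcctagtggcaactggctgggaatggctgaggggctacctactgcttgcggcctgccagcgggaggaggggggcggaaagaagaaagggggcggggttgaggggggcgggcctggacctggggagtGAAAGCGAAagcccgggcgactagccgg
PSMB10 and PSME2 hold the same 9 letters, GAAAGCGAA, from 21 to 13 and from 28 to 20 bases before their starts. The other start of PSMB8 holds a GAS match from 65 to 57 bases before it, and the windows of PSMB9, PSME1 and the first starts of PSMB8 and PSMB5 hold neither motif. A further start of PSMB5, not shown, holds 2 GAS matches. The start of PSMB9 lies 488 bases from that of TAP1, a peptide transporter gene read in the opposite direction, whose own window holds 2 interferon core matches.

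Of the 42 proteasome genes, 37 matched the promoter table, with 44 starts, and PSMA7, PSMB1, PSMB6, PSMB7 and PSMD4 did not. The interferon core was in 4 of the 44 windows (9.09%) and in 6.88% of all 35116 windows, and the GAS element in 7 (15.9%) and 6.57%. The interferon core was in the windows of PSMA4, PSMB4, PSMB10 and PSME2. The GAS element was in those of PSMA2, PSMA8, PSMC4, PSMD3 and PSME3, and of a further start each of PSMB5 and PSMB8. The letters TGACNNNGC, the core of the antioxidant response element, were in 11 windows (25.0%) and in 10.9% of all windows. They were in the windows of PSMB3, PSMB9, PSMD3, PSMD5, PSMD9, PSMD12, PSME1, PSME2 and PSME4, and of a further start each of PSMA4 and PSMC5. The CCAAT box (CCAAT) was in 17 windows (38.6%) and in 32.0% of all, the GC box (GGGCGG) in 27 (61.4%) and in 42.6% of all, and the cAMP response element (TGACGTCA) in 0 and in 1.65% of all. Such matches describe the letters and not binding.

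In the sh-labelled RNAs, the 3 inducible beta subunits and the lid subunit PSMD6 were called lower than the Ctrl, and the constitutive catalytic subunit PSMB5 was called higher. Of the 45 names, 41 were tested, 38 proteasome genes and the 3 others, and 4 of the 41 (9.76%) were called lower and 1 (2.44%) higher. Among all 24958 probes tested, 4.16% were called lower and 2.98% higher. At the adjusted p alone, 20 of the 41 genes (48.8%) were lower and 4 (9.76%) higher, while 16.2% and 15.6% of all probes were, and 17 genes did not pass. Lower on all 4 arrays were 17 genes (41.5%), against 19.5% of all probes, and higher on all 4 were 4 genes (9.76%), against 18.5%. The median over the 41 genes was -0.32, with -0.29 in sh-S1 and -0.32 in sh-S2, and the median of all probes tested was 0.00. All 41 genes entered the test because the Ctrl signal of each lay well above background on each of the 4 arrays. PSMB8 entered through the Ctrl alone, the RNA in which it was higher, since neither clone was well above background in Cy5. Its call is thus not independent of the filter.

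**Figure D1:**
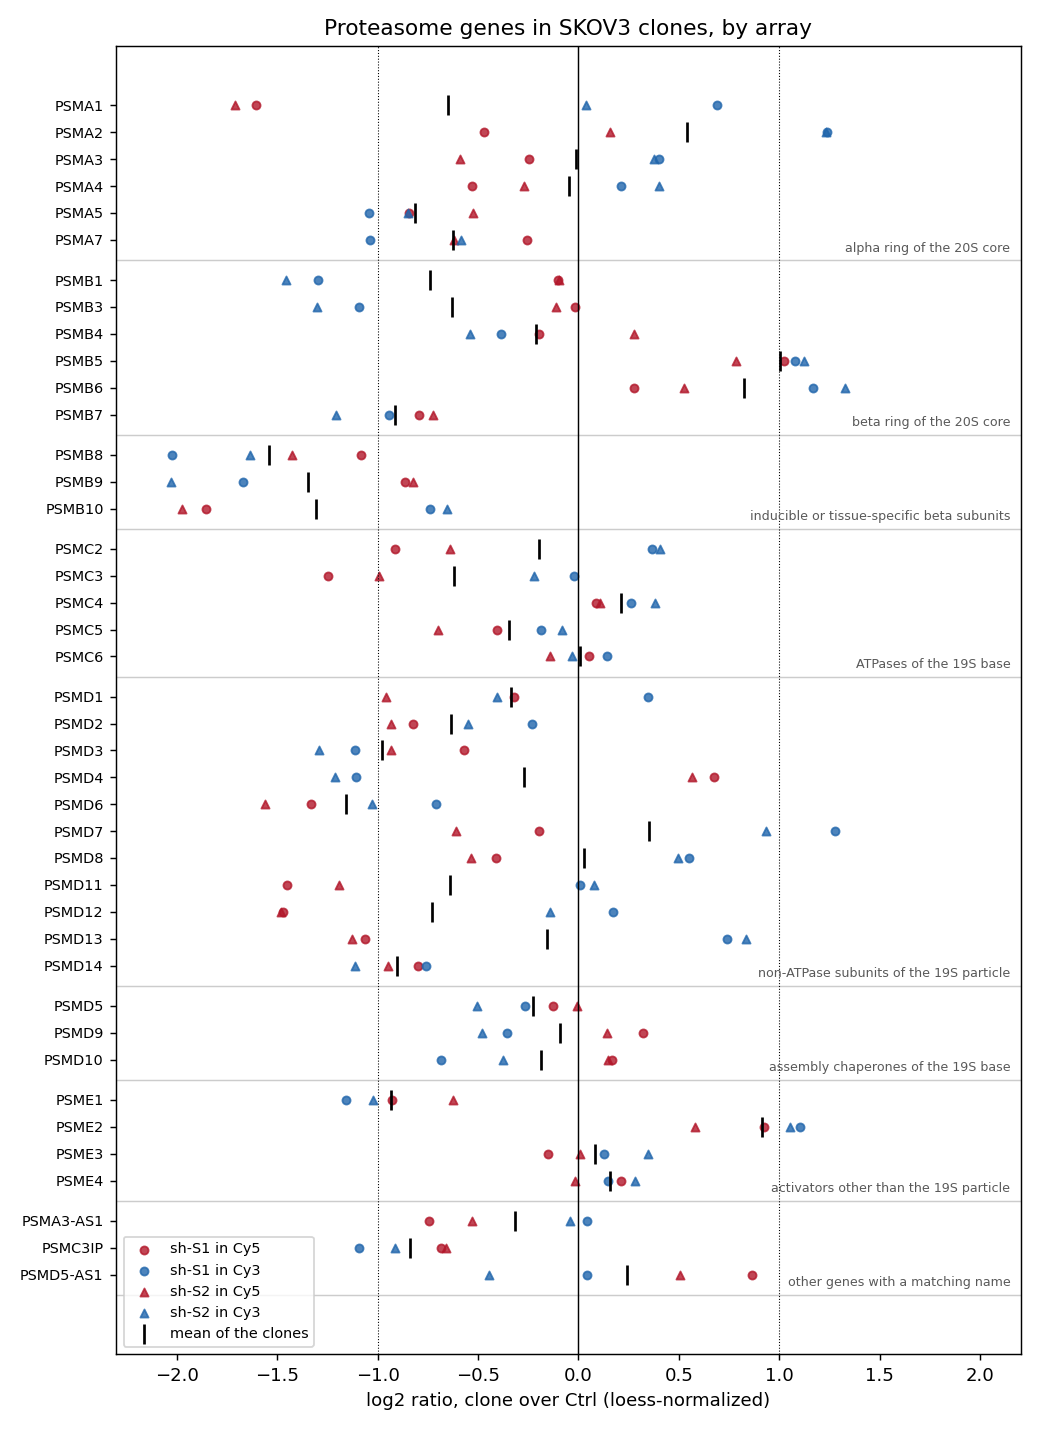
Log2 ratio of clone over Ctrl (x axis) on each of the 4 SKOV3 arrays for the 41 genes tested (y axis, grouped by role). Circles are sh-S1 and triangles sh-S2, red for Cy5 and blue for Cy3 arrays, black ticks are the mean of the clones and dotted lines mark 2-fold. All points of PSMB8, PSMB9, PSMB10 and PSMD6 lie below 0 and all points of PSMB5, PSMB6 and PSME2 above it.

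PSMB8, the inducible counterpart of PSMB5, had log2 ratios of -1.08 and -2.02 in sh-S1 and -1.42 and -1.64 in sh-S2, the first value of each clone from its Cy5 array (the clone labelled with Cy5) and the second from its Cy3 array. All 4 arrays were more than 2-fold down. Its mean was -1.54 ± 0.01 (SD, n = 2; SE 0.09, adjusted p = 5.98e-05 by limma), or 2.91-fold lower, with a 95% confidence interval from -1.76 to -1.32. This size depends on the processing, with -3.57 on the processed signals of Feature Extraction and -2.17 with median centring, both outside that interval. The Ctrl was well above background on all 4 arrays, and the clones on the 2 arrays that carried them in Cy3, where the mean was -1.83, but not on the 2 Cy5 arrays. The fold, the interval and the p thus include clone signals that were not well above background, and PSMB8 entered the test only through the Ctrl. Its probe lies at chr6:32810023-32810490 in hg19, the build of the array files.

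PSMB9, the inducible counterpart of PSMB6, gave -0.86 and -1.67 in sh-S1 and -0.83 and -2.03 in sh-S2, in the same order of dyes. Both clones were lower by more on the Cy3 arrays. The mean was -1.35 ± 0.11 (SD, n = 2; SE 0.10, adjusted p = 0.000128 by limma), a 2.54-fold fall. Its probe is at chr6:32823918-32823977 in hg19.

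PSMB10, which takes the place of PSMB7, was at -1.86 and -0.74 in sh-S1 and at -1.97 and -0.66 in sh-S2. Here the larger falls were on the Cy5 arrays, the reverse of PSMB8 and PSMB9. Its mean was -1.31 ± 0.01 (SD, n = 2; SE 0.09, adjusted p = 0.000116 by limma), or 2.47-fold lower, and its probe lies at chr16:67968547-67968731 in hg19. On the Cy5 arrays alone PSMB9 was at -0.84, and on the Cy3 arrays alone PSMB10 was at -0.70, each short of 2-fold.

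The constitutive catalytic subunits did not move together. PSMB5, which carries the chymotrypsin-like site, was at 1.03 and 1.08 in sh-S1 and at 0.78 and 1.12 in sh-S2. All 4 arrays were higher, 3 of them by over 2-fold, and the mean was 1.00 ± 0.07 (SD, n = 2; SE 0.09, adjusted p = 0.0004 by limma), which is 2.004-fold and just past the threshold. The call was lost on the processed signals of Feature Extraction (0.91), with median centring (0.88) and on the Cy5 arrays alone (0.90). The PSMB5 probe is at chr14:23495485-23495544 in hg19.

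PSMB6, the subunit with the caspase-like site, had ratios of 0.28 and 1.17 in sh-S1 and 0.53 and 1.33 in sh-S2, higher on all 4 arrays. Its mean of 0.82 ± 0.14 (SD, n = 2; adjusted p = 0.00123 by limma) was short of 2-fold. PSMB7, with the trypsin-like site, was at -0.79 and -0.94 in sh-S1 and at -0.72 and -1.21 in sh-S2, lower on all 4 arrays, with a mean of -0.91 ± 0.07 (SD, n = 2; adjusted p = 0.000592 by limma), also short of 2-fold. In the pairs PSMB8 with PSMB5 and PSMB9 with PSMB6 the inducible subunit was lower and the constitutive one higher on all 4 arrays, and in the pair PSMB10 with PSMB7 both were lower.

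**Figure D2:**
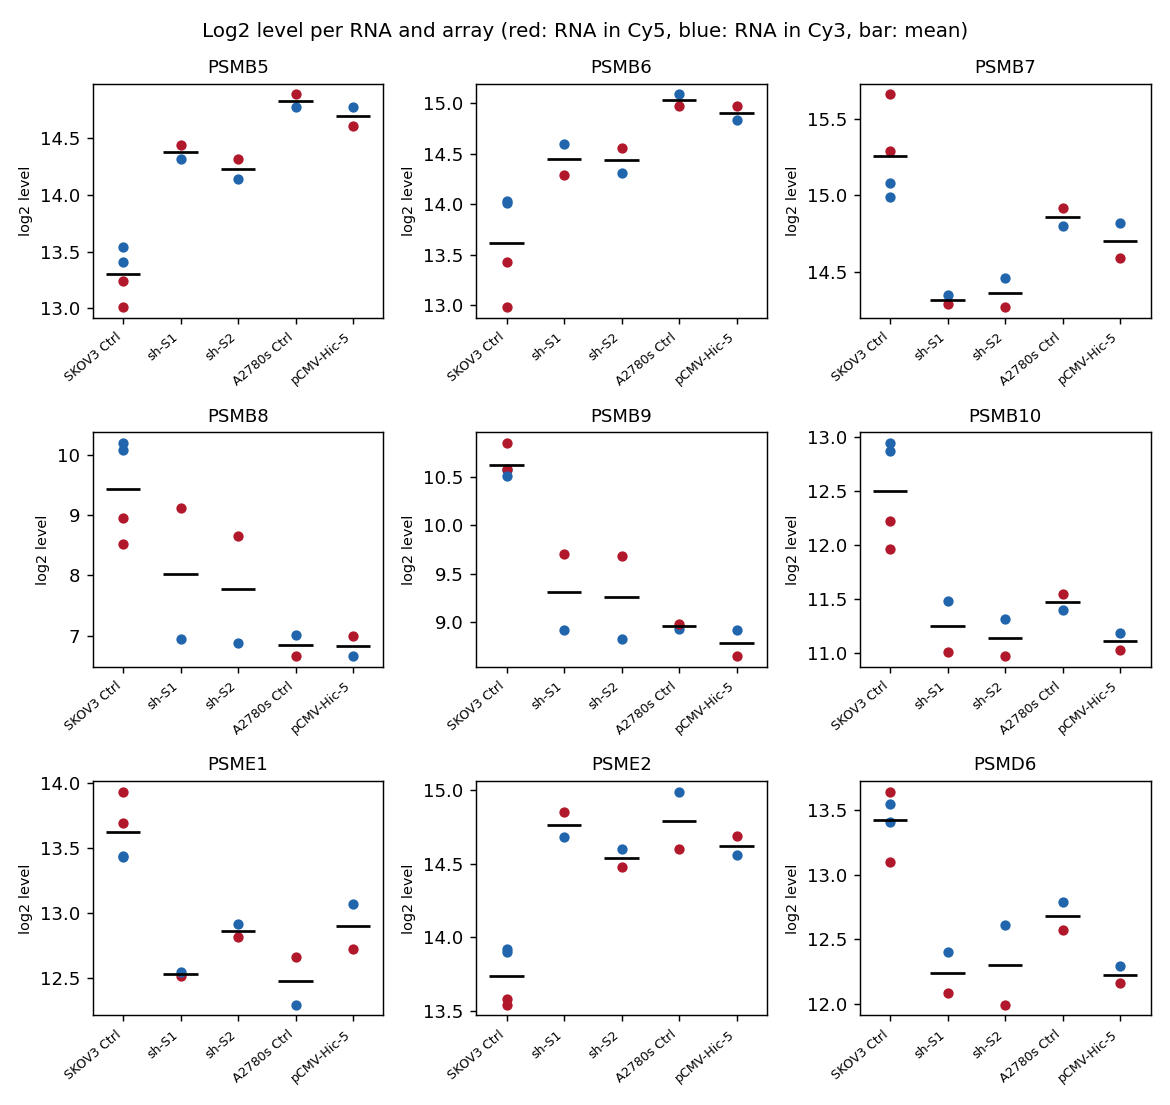
Log2 level (y axis, after loess within and Aquantile normalization between arrays) of 9 proteasome genes in the 5 RNAs (x axis). Each point is 1 RNA on 1 array, red where that RNA was in Cy5 and blue where it was in Cy3, and bars are means. For PSMB5, PSMB6 and PSME2 the points of sh-S1 and sh-S2 lie above all SKOV3 Ctrl points, and for PSMB7, PSMB9, PSMB10, PSME1 and PSMD6 they lie below, while for PSMB8 the clones in Cy5 reach into the range of the Ctrl.

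The other beta subunits, which are structural, were at or below the Ctrl. PSMB1 was at -0.74 (adjusted p = 0.00145 by limma) and PSMB3 at -0.63 (adjusted p = 0.00331 by limma), both lower on all 4 arrays, although on the Cy5 arrays PSMB1 lay at -0.10 in both clones and PSMB3 at -0.02 and -0.11. PSMB4 lay at -0.21 and did not pass (adjusted p = 0.159 by limma). The brightest probe of PSMB2 carried an outlier flag on 1 SKOV3 array and was not tested, and its next probe was at -0.996 (adjusted p = 0.000394 by limma), just short of 2-fold. A further, dimmer probe of PSMB2 was at -0.24.

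Of the alpha ring genes, which form the gate of the barrel, 6 of 8 were tested. None was called, beside 4.16% of all probes called lower and 2.98% called higher. PSMA5 (-0.81), PSMA1 (-0.65) and PSMA7 (-0.62) were lower at limma's adjusted p, and PSMA2 was higher (0.54). PSMA5 and PSMA7 were lower on all 4 arrays, while PSMA1 and PSMA2 were not of 1 sign. PSMA3 (-0.01) and PSMA4 (-0.05) did not pass. The brightest probe of PSMA6 was flagged on both Cy3 arrays, and its other probe was at -1.06 ± 0.17 (SD, n = 2; adjusted p = 0.00047 by limma), lower on all 4 arrays and past both thresholds. PSMA8, a testis-specific alpha subunit, was not well above background in any RNA.

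None of the 5 tested ATPases in the base of the regulatory particle was called, beside 4.16% of all probes called lower and 2.98% higher. PSMC3 was at -0.62 (adjusted p = 0.00288 by limma) and PSMC5 at -0.34 (adjusted p = 0.0327 by limma), each lower on all 4 arrays. Both lay closer to the Ctrl on the Cy3 arrays. PSMC3 was at -1.25 and -0.99 on the Cy5 and at -0.02 and -0.22 on the Cy3 arrays, and PSMC5 at -0.41 and -0.70 and at -0.19 and -0.08. PSMC4 was at 0.09 and 0.26 in sh-S1 and at 0.11 and 0.38 in sh-S2, and its mean of 0.21 did not pass (adjusted p = 0.145 by limma). PSMC2 was at -0.20 and PSMC6 at 0.01, with its 4 probes between -0.04 and 0.04. Some of these means average opposite signs of the dyes. The PSMC6 probe at -0.04 lay at -1.19 and -0.94 on the Cy5 arrays and at 0.96 and 1.03 on the Cy3 arrays. The one at 0.04 lay at -0.83 and -0.61 on the Cy5 arrays and at 0.96 and 0.63 on the Cy3 arrays. The brightest probe of PSMC1 was flagged on 1 SKOV3 array, and its other probes were at -0.87 and -0.84.

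Among the 11 other subunits of the regulatory particle, 6 were lower at limma's adjusted p and none higher, beside 16.2% and 15.6% of all probes, with a median of -0.63. PSMD6, a scaffold subunit of the lid, was at -1.33 and -0.71 in sh-S1 and at -1.56 and -1.03 in sh-S2, below the Ctrl on all 4 arrays. Its mean was -1.16 ± 0.19 (SD, n = 2; SE 0.11, adjusted p = 0.000366 by limma), or 2.23-fold lower, with the probe at chr3:64004291-64004350 in hg19. On the Cy3 arrays alone PSMD6 was at -0.87, short of 2-fold.

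PSMD3 (-0.98), PSMD14 (-0.90), the deubiquitinase of the lid, and PSMD2 (-0.63) were lower on all 4 arrays, at adjusted p of 0.000749, 0.000966 and 0.00383 from limma. A dimmer probe of PSMD3 was at -0.32. PSMD12 (-0.73) and PSMD11 (-0.64) passed limma's adjusted p through the Cy5 arrays, where they lay between -1.48 and -1.19, and were between -0.14 and 0.17 on the others. PSMD1, a large scaffold subunit, was at -0.32 and 0.35 in sh-S1 and at -0.96 and -0.41 in sh-S2, and its mean of -0.33 did not pass. PSMD7, the partner of PSMD14, was at -0.20 and 1.28 in sh-S1 and at -0.61 and 0.93 in sh-S2, so that its sign turned with the dye, and its mean of 0.35 did not pass. On the Cy3 arrays alone PSMD7 was past both thresholds at 1.11 (adjusted p = 0.00103 by limma), and on the Cy5 arrays it was at -0.40. The ubiquitin receptor PSMD4 (-0.27) did not pass, nor did PSMD13 (-0.16) and PSMD8 (0.03). The base chaperones PSMD5 (-0.23), PSMD10 (-0.19) and PSMD9 (-0.09) did not pass.

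The PA28 activator is a ring of the PSME1 and PSME2 proteins, both induced by interferon, and their ratios had opposite signs. PSME1 was at -0.93 and -1.16 in sh-S1 and at -0.62 and -1.02 in sh-S2, lower on all 4 arrays. Its mean of -0.93 ± 0.16 (SD, n = 2; SE 0.10, adjusted p = 0.000757 by limma) was 1.91-fold and short of the threshold, and its dimmer probe was at -0.06 (adjusted p = 0.71 by limma). PSME2 was at 0.92 and 1.101 in sh-S1 and at 0.58 and 1.05 in sh-S2, higher on all 4 arrays. The mean of PSME2 was 0.91 ± 0.14 (SD, n = 2; SE 0.10, adjusted p = 0.000767 by limma), or 1.88-fold. The probes of PSME1 and PSME2 lie at chr14:24607738-24607972 and chr14:24612577-24612636 in hg19.

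PSME3, which forms a nuclear activator of its own, was at -0.15 and 0.13 in sh-S1 and at 0.01 and 0.35 in sh-S2. Its mean of 0.08 did not pass (adjusted p = 0.61 by limma), and its 2 other probes were at -0.41 and -0.39, so its probes disagree in sign. PSME4, the activator PA200, was at 0.16 and did not pass. Of the 3 genes that only share the name, PSMC3IP (-0.84) and PSMA3-AS1 (-0.32) passed the adjusted p of limma with lower values that did not reach 2-fold, and PSMD5-AS1 did not pass, with 0.86 and 0.04 in sh-S1, 0.50 and -0.44 in sh-S2 and a mean of 0.24.

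The sign of a ratio changed with the dye orientation in 11 of the 41 genes (26.8%), with one sign on both Cy5 arrays and the other on both Cy3 arrays. Among all probes tested the share was 25.7%. Of these 11 genes, 8 were lower on Cy5 arrays and higher on Cy3 arrays. PSMA1 had a Cy5 mean of -1.66 and a Cy3 mean of 0.36, PSMD13 had -1.10 and 0.79, and PSMD4 had 0.62 and -1.16. The genes called did not change sign with the dyes.

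**Figure D3:**
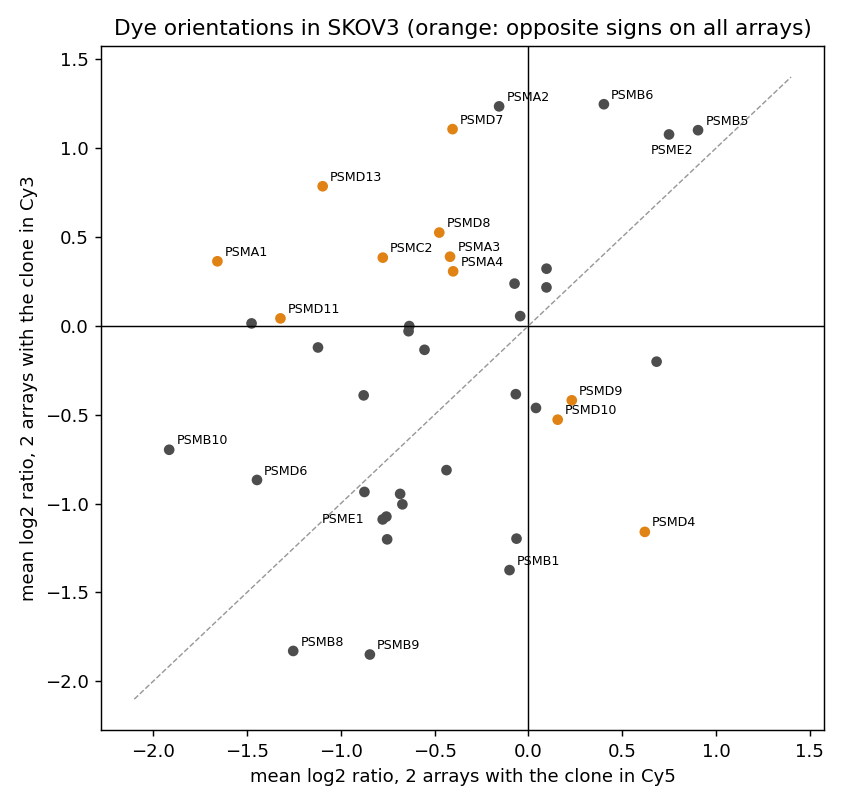
Mean log2 ratio of clone over Ctrl in SKOV3 on the 2 Cy5 arrays (x axis) against that on the 2 Cy3 arrays (y axis), with 1 point per gene tested. Orange points are the 11 genes whose sign changed with the dyes on all arrays, and the dashed line marks equal values. PSMB8, PSMB9, PSMB10 and PSMD6 lie at the lower left and PSMB5, PSMB6 and PSME2 at the upper right.

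In A2780s the proteasome genes differed little between the pCMV-Hic-5 clone and its Ctrl. Of 41 proteasome genes measured, none was past the 1.5-fold rule, while 3.26% of the 30531 probes were past it upwards and 1.32% downwards. Their means ranged from -0.52 to 0.42 with a median of -0.13, while the median of all probes was -0.01. There is 1 pair of RNAs here, so none of these values has a replicate check.

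PSMB8 was at -0.01 on both A2780s arrays, PSMB9 at -0.28 on the Cy5 and -0.06 on the Cy3 array, and PSMB10 at -0.37 and -0.36. PSMB5 was at -0.17 and -0.12, PSMB6 at -0.13 on both arrays, and PSMB7 at -0.21 and -0.10. All 6 catalytic subunits were thus at or slightly below the Ctrl. PSME1 was at 0.42 and 0.41, the highest mean among the proteasome genes, and its dimmer probe was at 0.60 and past the rule. PSME2 was at -0.30 and -0.04, and PSME3 at 0.51 and -0.19.

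The lowest means were those of PSMD1 (-0.90 and -0.14), PSMD6 (-0.63 and -0.28) and PSMD7 (-0.76 and -0.12), each further down on the Cy5 array. The other probe of PSMD1 had a mean of -0.02. PSMC4, at 0.50 and 0.17, was the proteasome gene next highest to PSME1. The antisense RNA PSMD5-AS1 was the only gene with a matching name past the rule, at 1.08 and 1.1, and its dimmer probe, with a mean of 0.71, was past it too. PSMD5 itself was at 0.32 and 0.07, and its dimmer probe at a mean of -0.32.

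**Figure D4:**
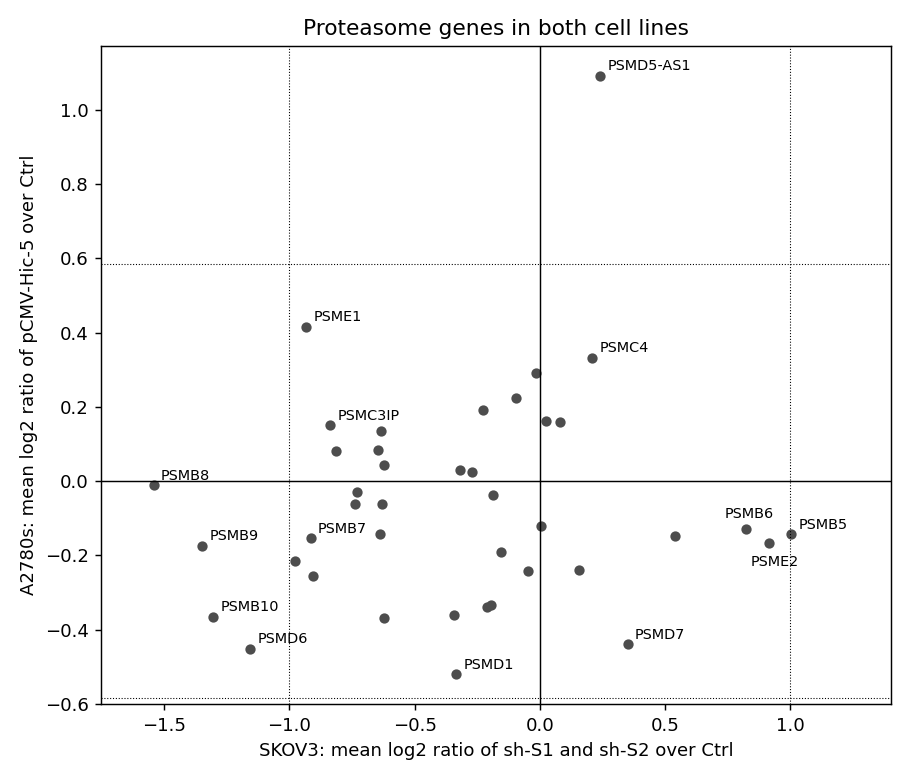
Mean log2 ratio over Ctrl in SKOV3 (x axis, sh-labelled RNAs) against that in A2780s (y axis, pCMV-Hic-5), with 1 point for each gene measured in both and dotted lines at 2-fold and 1.5-fold. PSMB8, PSMB9, PSMB10 and PSMD6 lie beyond 2-fold on the left, and PSMD5-AS1 is the only point past 1.5-fold on the y axis.

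Log2 levels per RNA place the SKOV3 values beside A2780s. PSMB8 had a mean level of 9.44 in the SKOV3 Ctrl (8.52 to 10.20 over 4 arrays), 8.03 in sh-S1, 7.77 in sh-S2 and 6.84 in the A2780s Ctrl. PSMB9 was at 10.63, 9.31, 9.26 and 8.95 in the same order, and PSMB10 at 12.50, 11.25, 11.14 and 11.47. For these 3 genes the sh-labelled RNAs lay nearer to the A2780s Ctrl than the SKOV3 Ctrl did, with PSMB10 below it. Over both dyes the levels of PSMB8 in the clones overlapped those in the SKOV3 Ctrl, although the ratio on each array was lower.

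PSMB5 had a mean level of 13.30 in the SKOV3 Ctrl, 14.38 in sh-S1, 14.23 in sh-S2 and 14.83 in the A2780s Ctrl, and PSMB6 was at 13.61, 14.44, 14.43 and 15.03. PSME1 was at 13.62, 12.52, 12.86 and 12.48, and PSME2 at 13.74, 14.77, 14.54 and 14.80. PSMD6 was at 13.43, 12.24, 12.30 and 12.68, and PSMB7 at 15.25, 14.32, 14.36 and 14.86. For PSMD6 and PSMB7, as for PSMB10, both clones lay below both Ctrl RNAs. These levels share the SKOV3 Ctrl, each cell line was on a slide of its own, so slide and line cannot be told apart, and levels of different probes are not compared. Less RNA per cell and fewer cells expressing a gene cannot be told apart in such RNA.

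Genes that work with the proteasome were taken from lists. All 15 genes of proteasome partners and assembly were tested in SKOV3. None was called, beside 4.16% of all probes called lower and 2.98% called higher. At limma's adjusted p 7 were lower and 3 higher, beside 16.2% and 15.6% of all probes, and the median of the 15 was -0.27. In A2780s 1 of the 15 was past the rule, beside 3.26% of all probes upwards. This was ZFAND2A, a stress-induced proteasome adaptor, at 1.42. Of the 13 tested genes of ubiquitin supply, shuttles and regulators, 1 was called in SKOV3, beside 4.16% of all probes called lower. This was SQSTM1, the ubiquitin receptor of autophagy, at -1.22 (adjusted p = 0.000168 by limma), and the median of the 13 was -0.21. In A2780s 5 of 14 were past the rule, all higher, beside 3.26% of all probes upwards, among them SQSTM1 (1.21), the ubiquitin gene UBB (1.02) and NFE2L1 (0.93), a transcription factor of proteasome genes.

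In the list of MHC class I presentation, the pathway that uses immunoproteasome products, 6 of 13 tested genes were called lower in SKOV3 and none higher, beside 4.16% and 2.98% of all probes, with a median of -0.85. At limma's adjusted p alone 8 were lower and 2 higher, beside 16.2% and 15.6% of all probes, and 3 did not pass. The higher ones were CALR (0.61), higher on all 4 arrays, and PDIA3 (0.58), whose sign turned with the dye. PDIA3 was at -0.71 and -0.69 on the Cy5 arrays and at 1.74 and 1.99 on the Cy3 arrays. Among the genes called lower were HLA-C (-2.55), HLA-B (-2.02), ERAP2 (-1.97), B2M (-1.80) and TAP1 (-1.25). Of the 13 genes measured in A2780s, B2M was past the rule downwards (-0.91) and CALR upwards (0.68), beside 1.32% and 3.26% of all probes.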

How the data were processed

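Agilent Whole Human Genome arrays were read in Cy3 and Cy5. The authors deposited spot intensity values as written by Feature Extraction (8.5.1.1 in the submitters' processing notes, 10.7.3.1 in the file headers; mean signal, median local background, hg19), without normalization. The deposited log10 ratio of Cy5 over Cy3, also the series value, was not turned on dye-swapped arrays and was not used here. The authors' processed intensities, corrected for background and dye by their software, served as an alternative.

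Background was corrected by normexp (offset 50) in limma 3.58.1 (R 4.3.3). Its parameters were fitted without spots with a background flag, and 39 probe spots with a local background over 1000 on 1 A2780s array were left out, as were control and outlier-flagged spots (121 to 362 per array). Both choices followed earlier sight of the data. Log2 ratios were normalized by loess, given the sign of clone over Ctrl, and averaged per clone. For SKOV3, lmFit and eBayes tested the 2 clone values against 0 for 24958 probes. A probe entered if its Ctrl signal was well above background on every array of the line, or its signal in a clone on both. The Ctrl's own spread is not in the test. The p-values, SE and intervals rest on limma's moderated variance, which pools the spread between the 2 clones with that of all probes (prior degrees of freedom 5.57). For PSMB10 the SD of the clones was 0.01 and the SE 0.09, so little of that SE came from its own clones. With 2 clones of 1 line, these values speak for these samples only. The A2780s rule covered 30531 probes. Levels came from loess followed by Aquantile. Arrays have no read depth, and their number and the dim Cy5 signal limit the precision.

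The member genes, their roles and the gene lists were chosen with earlier results of these data known, and some list genes are not reported here. Values per array are given for genes called in either line, the catalytic subunits, their inducible counterparts, PSME1 to PSME3, and the 3 genes with the largest change in each direction in each line. Alternatives were other background corrections, median centring, the processed intensities, no filter, the mean over a gene's probes, 1 dye orientation, 1 clone and, chosen after seeing the data, the brightest probe with a value on every array. The promoters are those of RefSeq (GRCh38.p14), used for sequence only, while probe positions are those of the array files.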

Additional observations from a re-analysis of the deposited data

Results flagged for a closer look

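The 6 genes PSMB5, PSMB6, PSMC3IP, PSMD5, PSME1 and PSME2 went one way on all 4 SKOV3 arrays and the other way on both A2780s arrays. These are 14.6% of the 41 genes tested in both lines, close to the 11% of the 23731 probes tested in both. Some of the signs rest on values near 0. PSMD5 was at -0.007 on the Cy5 array of sh-S2. In A2780s PSME2 was at -0.04 on the Cy3 array and PSMC3IP at 0.05 on the Cy5 array. The difference of these effects was not tested. The log2 ratio in A2780s minus that in SKOV3 was -1.15 for PSMB5, -0.95 for PSMB6 and -1.08 for PSME2, which were higher than the Ctrl in SKOV3 and lower in A2780s. It was 1.35 for PSME1, 0.99 for PSMC3IP and 0.42 for PSMD5, which were lower in SKOV3 and higher in A2780s. The A2780s ratios of these genes lay between -0.17 and 0.42, and the arrays of each line were on a slide of their own. In SKOV3 the brightest probe of PSMD5 did not pass the adjusted p of limma (0.118), and its dimmer probe in A2780s had the opposite sign (-0.32).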

How the results depend on the processing

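The count of genes called lower in SKOV3 (4) became 9 with median centring, 9 on the Cy5 arrays alone and 9 on the Cy3 arrays alone. The count called higher (1) became 0 on the processed signals, with median centring and on the Cy5 arrays alone, and 5 on the Cy3 arrays alone. The median over the genes in SKOV3 (-0.32) was -0.27 on the processed signals, -0.44 with median centring, -0.29 without a filter on dim probes, -0.51 on the Cy5 arrays alone and -0.13 on the Cy3 arrays alone, and ranged from -0.32 to -0.29 when 1 clone was left out. The count past the rule downwards in A2780s (0) became 1 on the processed signals and 3 on the Cy5 array alone, and the A2780s median over all matching names (-0.12) was -0.079 on the Cy3 array alone. The cause of these shifts was not tested. The shares of all probes called under these settings are not reported here, so the changed counts cannot be set against them. Normexp fitted on all spots, no background subtraction, the mean over a gene's probes, 1.5-fold on each array in A2780s, and the brightest probe with a value on every array, which was chosen after seeing the data and brings in PSMA6 as a further gene called lower, kept all counts within 1.5 times. No named gene changed sign from a call under any of these alternatives. No slide block could be fitted, since each slide holds 1 cell line. Each array held a clone and its Ctrl, so the log2 ratios tested against 0 were already paired within the array. No further pairing was possible, because both SKOV3 clones share 1 Ctrl RNA and replicate numbers only mark dye orientation. PSMB8 in the clones was well above background on 2 of the 4 SKOV3 arrays.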
